A study of Mus musculus with 8 samples.

Results

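GFP-positive cells were compared between Sox9 Y440X heterozygous and wild-type (WT) limb buds of C57BL/6 mouse fetuses at E13.5, midgestation. The Y440X fetuses were Sox9 +/Y440X-IRES-EGFP and the WT fetuses Sox9 +/IRES-EGFP, so both genotypes carried 1 Sox9 allele that also encodes EGFP and 1 unmarked allele. That is the genotype in the study's design, while the headers of the deposited tables name the WT mice Sox9+/+. The compared genes were the 739 distinct genes of the 4 deposited lists, which hold genes the authors called higher or lower in Y440X cells, in GFP-positive or GFP-negative cells. Each was measured in 4 of the 8 libraries of the series: Y440X GFP-positive forelimb and hindlimb, and WT GFP-positive forelimb and hindlimb. Of the 739 genes, 303 were in the authors' list for GFP-positive cells and 436 were listed for GFP-negative cells alone. The description below follows 284 of the 739, which encode transporters and channels, enzymes, receptors or transcription factors. Of these 284, 120 were listed for GFP-positive cells.

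Each library came from buds pooled from 4 to 6 pairs, dissociated with collagenase and neutral protease and sorted by fluorescence. The authors' design counts the forelimb and the hindlimb library of a genotype as its 2 replicates. The spread within a group is therefore the difference between 1 forelimb and 1 hindlimb pool. Fewer cells of a type and less RNA per cell cannot be told apart in these bulk libraries. The effective library size was 45545000 and 44860000 reads in the Y440X libraries and 38580000 and 42563000 in the WT libraries. A gene at 1 CPM (count per 1000000 reads) thus rests on 38.6 to 45.5 reads.

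SOX9 is a transcription factor of the SOX family, which bind DNA through an HMG box, and it is required for cartilage formation in the limb. It acts with SOX5 and SOX6 on genes of the cartilage matrix, among them Col2a1, the gene of the main collagen of cartilage. In humans, heterozygous loss of SOX9 function causes campomelic dysplasia, and Y440X is a stop codon in the C-terminal part of the protein. Because EGFP is made from the Sox9 transcript, the sort takes cells by the activity of the marked allele itself, in both genotypes.

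Both markers of the sorted cells were present in every GFP-positive library and lower in Y440X. Sox9 was at 475 and 559.8 CPM in Y440X forelimb and hindlimb cells, against 1070 and 925 CPM in WT cells. Its log2 fold change was -0.95 ± 0.28 (SE), with an adjusted p of 0.00604 in edgeR's quasi-likelihood test. Without the Y440X forelimb or the WT forelimb library its adjusted p was over 0.05, with a range of 0.0291 to 0.126 over the 4 libraries left out in turn. Col2a1 was at 7767 and 5927 CPM in Y440X cells, against 23728 and 16000 CPM in WT cells. In the GFP-negative cells of the same buds Sox9 was at 17.9 and 21.8 CPM in Y440X and at 96.5 and 72.04 CPM in WT.

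Sums over marker lists of other cell types and of heat shock genes follow, and their part in the results below was not tested. The tables hold only genes the authors called, so the direction of a sum partly follows from that choice. Listed for GFP-positive cells themselves were 11 of the 13 epithelium, 4 of the 6 Schwann cell and neural crest and 3 of the 3 heat shock genes. The full lists of these held 30, 16 and 12 genes. The 13 epithelium markers found in the tables summed to 64.1 and 90.3 CPM in Y440X cells, against 24.6 and 25.4 CPM in WT cells. The 6 Schwann cell and neural crest markers summed to 18.6 and 23.5 CPM in Y440X cells, against 67.8 and 78.0 CPM in WT cells. The 3 heat shock genes summed to 263 and 283 CPM in Y440X cells, against 59.6 and 51.8 CPM in WT cells. The 11 endothelium markers summed to 23.1 and 20.1 CPM in Y440X cells, against 15.1 and 14.8 CPM in WT cells. The 17 macrophage markers summed to 12.8 and 10.8 CPM in Y440X cells, against 13.3 and 14.0 CPM in WT cells. The sum does not stand for its members: 12 had a positive and 5 a negative log2 fold change. By edgeR's test 2 were higher and 2 lower. The 8 skeletal muscle markers summed to 9.16 and 7.45 CPM in Y440X cells, against 14.1 and 10.4 CPM in WT cells. The 2 erythroid markers summed to 1.76 and 2.05 CPM in Y440X cells, against 1.32 and 1.83 CPM in WT cells. Outside the erythroid list, only Cacna1s of the muscle list had 0 counts in a GFP-positive library. Ddx3y and Uty, on the Y chromosome, were also lower in Y440X cells, at 25.8 and 25.8 CPM against 68.5 and 60.1 CPM in WT cells for Ddx3y, so the sex ratio of the pools cannot be told apart from genotype.

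**Figure D1:**
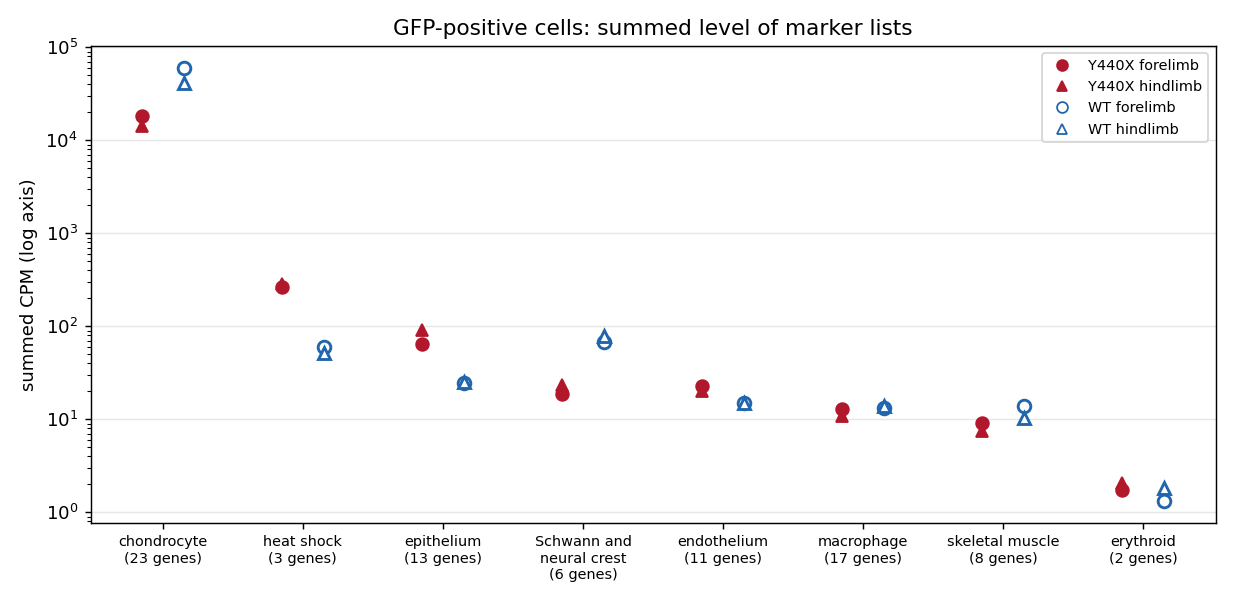
Summed CPM (log axis) of each marker list in the 4 GFP-positive libraries, with Y440X libraries as filled red symbols left of the WT libraries as open blue symbols; circles are forelimb and triangles hindlimb. The chondrocyte sum was 18252 and 14392 CPM in Y440X cells, against 60565 and 41495 CPM in WT cells. Of its 23 genes, 19 were listed for GFP-positive cells. The macrophage sums of the genotypes lie close together.

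The genes listed for GFP-positive cells were mostly lower in Y440X in all 4 classes. The authors listed a gene when its false discovery rate (FDR) was under 0.05 and its absolute log2 fold change at least 1. The values of these genes are therefore given as a description, with no test. Where the libraries of the genotypes are said not to overlap for a listed gene, this partly follows from that choice. Of the 739 genes, 30.7% were in the list of lower genes and 10.3% in the list of higher genes. In the 4 classes together 97 of the 120 listed genes were lower and 23 higher. The lower share was 27 of 30 transporters and channels, 40 of 49 enzymes, 8 of 12 receptors and 22 of 29 transcription factors, beside 227 of 303 over all listed genes. The median log2 fold change of the 120 was -1.29, beside -1.27 over the 303. The members just inside the authors' bound of 1 were the zinc transporter gene Slc39a14 at -1.01 and Crabp1 at 1.01. Sox9 itself, at -0.95, lay just outside it.

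**Figure D2:**
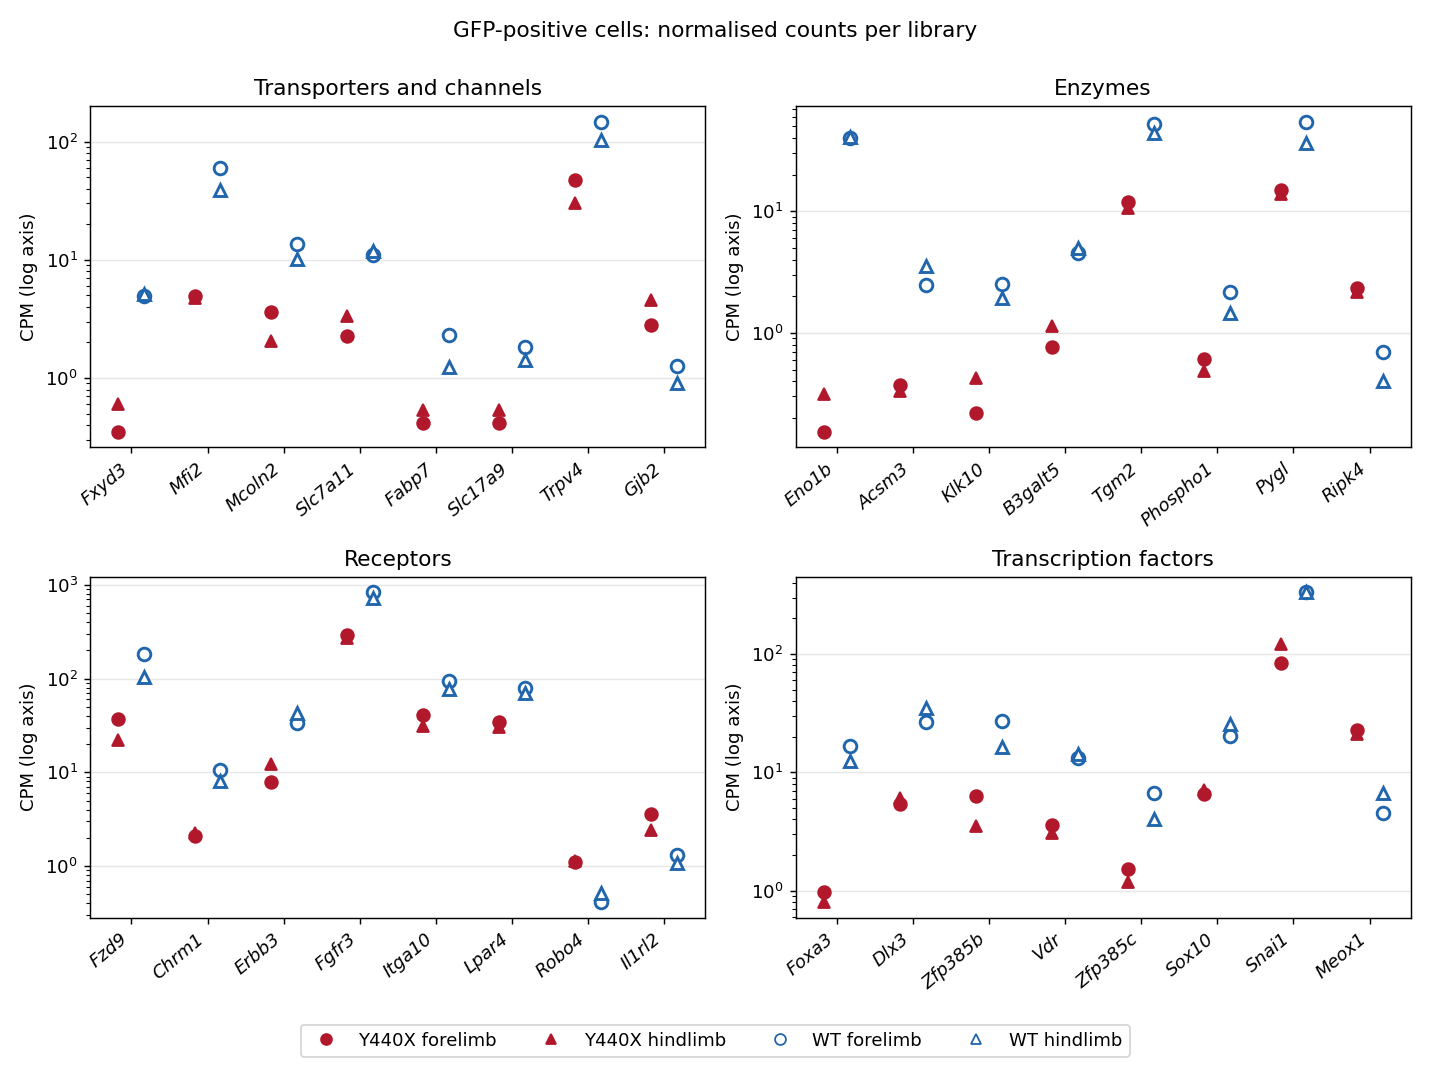
CPM (log axis) in the 4 GFP-positive libraries of the 8 genes per class with the largest absolute log2 fold change among listed genes placed in the class by symbol pattern, on no chondrocyte, epithelium or heat shock list and with a mean of at least 1 CPM in the higher genotype. Filled red symbols are Y440X libraries, drawn left of the open blue WT libraries. Circles are forelimb and triangles hindlimb. For every gene shown the Y440X and WT libraries do not overlap, which partly follows from choosing the genes by their difference in these same libraries.

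Most genes that were lower in Y440X cells were those that WT GFP-positive cells held at higher levels than WT GFP-negative cells. Of the 97 lower genes in the 4 classes, 78 had a mean CPM in WT GFP-positive cells more than 2 times that in WT GFP-negative cells, beside 160 of 227 lower genes in all. Of the 23 higher genes, 18 had a mean in WT GFP-positive cells under 0.5 times that in WT GFP-negative cells, beside 55 of 76 higher genes in all. The WT GFP-positive libraries enter both the listing and this ratio. Per length, the highest of the 120 genes in WT GFP-positive cells was Cpe, which encodes the prohormone-processing carboxypeptidase E, at 277 RPKM (CPM per kilobase of gene length) in Y440X and 570 RPKM in WT. Snai1 followed at 64.7 RPKM in Y440X and 211 RPKM in WT, and Fgfr3 at 63.9 RPKM in Y440X and 177 RPKM in WT.

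Among the transporters and channels with a mean of at least 1 CPM in the higher genotype, Fxyd3 and Mfi2 differed most. Mfi2 (now Meltf), which encodes melanotransferrin, a membrane-anchored iron-binding relative of transferrin, was at 4.98 and 4.73 CPM in Y440X cells, against 59.7 and 39.00 CPM in WT cells. Its log2 fold change was -3.35 ± 0.25 (SE), and the FDR in the authors' deposited table was 0.00189. Both Y440X libraries lay at about the same level and far below both WT libraries. Fxyd3, a small membrane protein that regulates the sodium-potassium pump, was at 0.351 and 0.602 CPM in Y440X cells, against 4.92 and 5.12 CPM in WT cells, a log2 fold change of -3.39 ± 0.33 (SE). A smaller difference was that of Slc8a3, a sodium-calcium exchanger, which was at 10.1 and 10.4 CPM in Y440X cells, against 30.5 and 28.3 CPM in WT cells. The Y440X and WT libraries of these 3 genes did not overlap.

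Of the other listed ion channels, several were lower and the potassium channel gene Kcnf1, given below, was higher. Trpv4, a calcium-permeable channel of chondrocytes whose human gene is mutated in several skeletal dysplasias, was at 46.97 and 30.2 CPM in Y440X cells, against 147 and 102 CPM in WT cells. Its log2 fold change was -1.69 ± 0.27 (SE). The forelimb was higher than the hindlimb in both genotypes. Mcoln2, a cation channel of endolysosomes, was at 3.60 and 2.05 CPM in Y440X cells, against 13.6 and 10.1 CPM in WT cells. The calcium channel gene Cacna1a was at 23.03 and 24.2 CPM in Y440X cells, against 51.7 and 53.97 CPM in WT cells, with each pair of libraries close together. Itpr2, the calcium release channel of the endoplasmic reticulum, was at 33.5 and 29.4 CPM in Y440X cells, against 98.2 and 53.97 CPM in WT cells, and its log2 fold change of -1.28 became -0.78 without the WT forelimb library. The potassium channels Kcnq5 and Kcnk5 had log2 fold changes of -1.27 ± 0.25 and -1.17 ± 0.23 (SE).

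Other lower members were solute carriers for sulfate, nucleotide sugars, cystine and zinc. Slc26a2, the sulfate transporter mutated in human diastrophic dysplasia, was at 34.5 and 26.5 CPM in Y440X cells, against 116 and 71.05 CPM in WT cells. Slc35a3, which carries UDP-N-acetylglucosamine into the Golgi, was at 23.9 and 22.2 CPM in Y440X cells, against 64.05 and 49.4 CPM in WT cells. Slc7a11, the cystine-glutamate exchanger, was at 2.26 and 3.32 CPM in Y440X cells, against 11.02 and 11.98 CPM in WT cells. Groups overlapped for none of these 3 genes. Slc17a9, which loads nucleotides into vesicles, had a log2 fold change of -1.76 ± 0.35 (SE) at under 2 CPM in every library. Of the zinc transporters, Slc30a2 had -1.51 ± 0.28 and Slc39a14 -1.01 ± 0.25 (SE). Both parts of the lipid flippase machinery in the list, the subunit Tmem30a and the flippase Atp10a, were lower, with -1.23 ± 0.24 and -1.20 ± 0.26 (SE).

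Channels that join cells or open to the outside went both ways. Gjb2, which encodes a connexin found in epithelia, was at 2.81 and 4.57 CPM in Y440X cells, against 1.27 and 0.916 CPM in WT cells, and the summed epithelium markers given above were higher too. Gjc3, a connexin of myelinating glia, was at 0.0439 and 0.0223 CPM in Y440X cells, against 1.14 and 0.352 CPM in WT cells. Fabp7, a fatty acid carrier of glia and one of the 6 Schwann cell markers, was at 0.417 and 0.535 CPM in Y440X cells, against 2.33 and 1.25 CPM in WT cells. Panx3, a pannexin channel of cartilage and bone, was at 29.8 and 38.5 CPM in Y440X cells, against 70.1 and 77.4 CPM in WT cells. Beside Gjb2, only Kcnf1 and Crabp1, a carrier of retinoic acid, were higher among the 30, with log2 fold changes of 1.44 ± 0.25 and 1.01 ± 0.25 (SE).

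A list of genes for chondroitin sulfate and proteoglycan synthesis held listed members in 1 direction only. This list of 33 genes was drawn up after the values were seen. It covers the linker, chain, sulfation and precursor steps, and 7 of its genes were in the tables. All 7 were in the authors' list of lower genes, beside 40 of the 49 listed enzymes and 227 of the 303 listed genes, with log2 fold changes of -1.62 to -1.10. Xylt1, which starts the chain on the core protein, was at 26.3 and 17.1 CPM in Y440X cells, against 78.1 and 44.1 CPM in WT cells. Csgalnact1, which begins the chondroitin chain, was at 43.3 and 27.6 CPM in Y440X cells, against 129 and 85.4 CPM in WT cells. Chst11, the 4-O-sulfotransferase of chondroitin, was at 227 and 208 CPM in Y440X cells, against 618 and 456 CPM in WT cells. For each of these 3 the forelimb exceeded the hindlimb in both genotypes, and the higher Y440X library stayed below the lower WT library. The other 4 were Slc26a2, the sulfate activating enzyme Papss2 (also a chondrocyte marker), Slc35a3 and the xylosyl phosphatase Pxylp1, whose log2 fold change of -1.10 became -0.64 without the WT forelimb library.

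Collagen-modifying enzymes were a second such list, also put together after the values were seen. Of 22 genes for hydroxylation, glycosylation, propeptide cleavage and crosslinking, 5 were in the tables and all 5 were listed as lower, beside the same 40 of 49 enzymes. Since the tables hold only genes the authors called, these counts do not speak of the other members. Plod2, which hydroxylates lysines of collagen telopeptides, was at 258 and 222 CPM in Y440X cells, against 653 and 461 CPM in WT cells. Colgalt2, a collagen galactosyltransferase, was at 37.1 and 35.6 CPM in Y440X cells, against 125 and 98.6 CPM in WT cells. Tgm2, a transglutaminase that crosslinks matrix proteins, was at 11.9 and 10.7 CPM in Y440X cells, against 52.8 and 44.01 CPM in WT cells, a log2 fold change of -2.10 ± 0.24 (SE). Tgm2 had the largest difference of the 5 and little spread within each genotype. The procollagen peptidase Adamts3 and the lysyl oxidase Loxl3 had -1.27 ± 0.26 and -1.10 ± 0.25 (SE). The other members of both lists were not in the tables and were not analysed here.

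**Figure D3:**
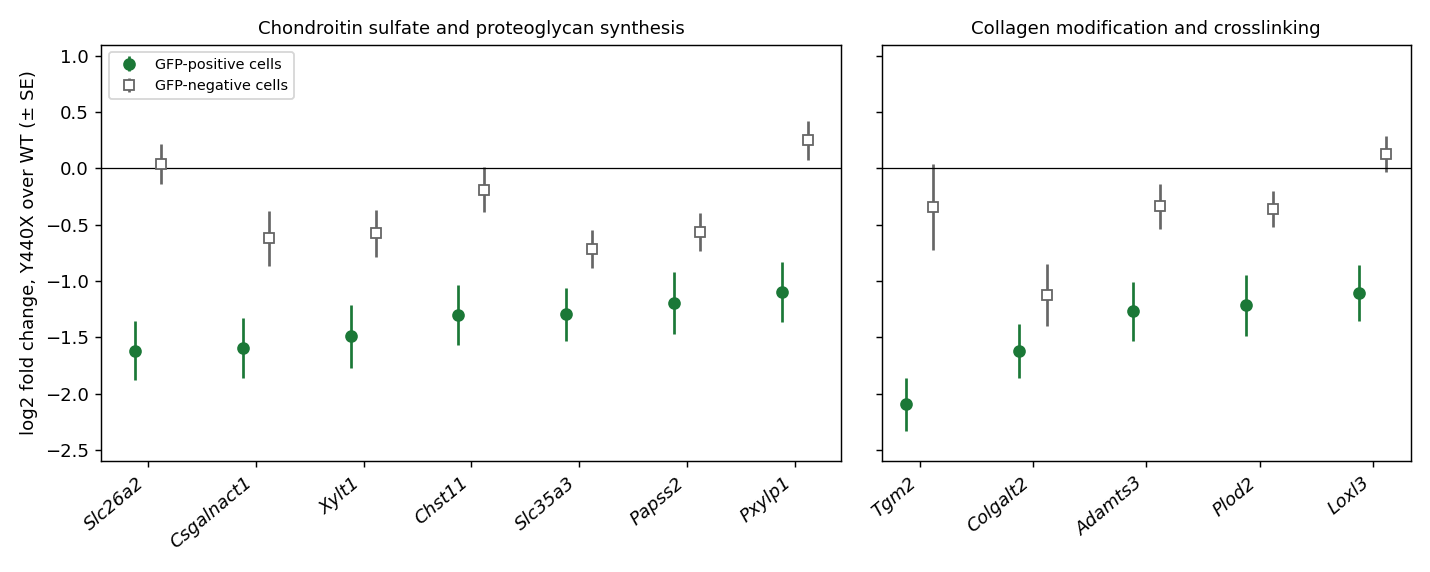
Log2 fold change of Y440X over WT with its SE for the 7 listed genes of chondroitin sulfate and proteoglycan synthesis (left) and the 5 of collagen modification (right). Values are shown in GFP-positive cells (filled green circles) and GFP-negative cells (open grey squares). All 12 values in GFP-positive cells lie between -2.10 and -1.10, and the GFP-negative values range from -1.12 to 0.25.

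Enzymes of mineralisation did not move together. Alpl, tissue-nonspecific alkaline phosphatase, was higher in Y440X cells, at 23.8 and 23.5 CPM, against 7.15 and 11.96 CPM in WT cells. Phospho1, the phosphatase that releases phosphate inside matrix vesicles, was at 0.615 and 0.490 CPM in Y440X cells, against 2.18 and 1.46 CPM in WT cells. Enpp1, which makes the mineralisation inhibitor pyrophosphate, and Smpd3, a sphingomyelinase required for normal skeletal mineralisation in mice, had log2 fold changes of -1.02 ± 0.25 and -1.36 ± 0.24 (SE).

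Other lower enzymes included kinases and enzymes of retinoic acid, glycogen and fatty acid metabolism. Both cGMP-dependent kinases were listed: Prkg2, which promotes growth plate differentiation in rodents, was at 13.9 and 17.8 CPM in Y440X cells, against 41.7 and 39.3 CPM in WT cells. Prkg1 was at 8.15 and 12.8 CPM in Y440X cells, against 28.1 and 29.9 CPM in WT cells. Cyp26b1, which degrades retinoic acid, was at 180.00 and 189.99 CPM in Y440X cells, against 446 and 386 CPM in WT cells. The carrier Crabp1 of the same ligand was higher, as given above. Pygl, which breaks down glycogen, was at 15.1 and 13.9 CPM in Y440X cells, against 54.6 and 36.8 CPM in WT cells. The fatty acid activating enzyme Acsm3 was at 0.373 and 0.334 CPM in Y440X cells, against 2.46 and 3.55 CPM in WT cells. The glycosyltransferase B3galt5 and the serine protease Klk10 had log2 fold changes of -2.31 ± 0.30 and -2.79 ± 0.39 (SE), both at under 5 CPM in every library.

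The largest difference of any enzyme was that of Eno1b, an enolase gene, at 0.154 and 0.312 CPM in Y440X cells, against 40.3 and 40.6 CPM in WT cells. Its log2 fold change was -7.43 ± 0.37 (SE) in GFP-positive cells and -6.56 ± 0.36 (SE) in GFP-negative cells. Eno1b is nearly identical to Eno1, and reads of the pair may have been divided between them in the authors' counting, so its value is uncertain. The cause of the difference between the genotypes was not tested. Of the 9 higher enzymes, Ripk4, a kinase of epithelial differentiation, had the largest log2 fold change at a mean of at least 1 CPM, with 2.33 and 2.16 CPM in Y440X cells, against 0.700 and 0.399 CPM in WT cells. The others included the ubiquitin ligase Rnf43, the sulfotransferase Sult4a1 and the metalloprotease Adamts16, with 1.53 ± 0.40, 1.20 ± 0.29 and 1.35 ± 0.32 (SE).

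Receptors were the smallest listed class. Fzd9, a Frizzled receptor for Wnt ligands, was at 37.5 and 22.3 CPM in Y440X cells, against 182 and 104 CPM in WT cells. Its log2 fold change of -2.26 ± 0.29 (SE) was the largest among the 12. Fgfr3, the fibroblast growth factor receptor that restrains chondrocyte proliferation and is activated in human achondroplasia, was at 290.1 and 272 CPM in Y440X cells, against 838 and 719.5 CPM in WT cells. Cspg4, the NG2 proteoglycan, was at 267 and 204 CPM in Y440X cells, against 783 and 624 CPM in WT cells. These 3 were clear of overlap, and all had their highest value in the WT forelimb. Itga10, the integrin subunit of a collagen receptor of cartilage, was at 40.6 and 31.3 CPM in Y440X cells, against 95.05 and 77.2 CPM in WT cells. The muscarinic acetylcholine receptor gene Chrm1 was at 2.11 and 2.25 CPM in Y440X cells, against 10.6 and 8.01 CPM in WT cells. The lysophosphatidic acid receptor gene Lpar4 had a log2 fold change of -1.20 ± 0.24 (SE). Erbb3, the neuregulin receptor of Schwann cells and one of their 6 markers, was at 7.99 and 12.4 CPM in Y440X cells, against 33.3 and 43.1 CPM in WT cells.

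The 4 higher receptors were all at low levels. Il1rl2, the receptor for interleukin-36, was at 3.56 and 2.45 CPM in Y440X cells, against 1.32 and 1.08 CPM in WT cells. Robo4, an endothelial Robo receptor on the endothelium list, was at 1.12 and 1.14 CPM in Y440X cells, against 0.415 and 0.517 CPM in WT cells. Adgrl4, an adhesion receptor of endothelial cells, was at 0.483 and 0.424 CPM in Y440X cells, against 0.207 and 0.188 CPM in WT cells. Kremen2, a receptor for the Wnt inhibitor Dkk1, had a log2 fold change of 1.12 ± 0.31 (SE).

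Among the transcription factors, Foxa3 had the largest decrease. This forkhead factor, which acts with Foxa2 in the hypertrophy of mouse chondrocytes, was at 0.966 and 0.802 CPM in Y440X cells, against 16.7 and 12.4 CPM in WT cells. Its log2 fold change was -4.03 ± 0.29 (SE), and the FDR in the authors' deposited table was 0.000754. Bcl3, a partner of NF-kappaB, was at 0.856 and 0.802 CPM in Y440X cells, against 4.59 and 5.29 CPM in WT cells. The homeobox gene Dlx3 was at 5.40 and 6.11 CPM in Y440X cells, against 26.7 and 34.8 CPM in WT cells. The vitamin D receptor gene Vdr was at 3.60 and 3.08 CPM in Y440X cells, against 13.2 and 14.3 CPM in WT cells. For none of these 4 did the genotypes overlap. Hr, a corepressor that binds the vitamin D receptor, was lower too, with -1.61 ± 0.24 (SE). Snai1, the zinc finger repressor, was at 84.7 and 120.5 CPM in Y440X cells, against 334 and 334 CPM in WT cells. Zfp385b and Zfp385c, a pair of related zinc finger genes, had -2.12 ± 0.29 and -1.98 ± 0.30 (SE).

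Members of the SOX family followed. Sox10, the SOX factor of neural crest and Schwann cells and one of the 6 markers, was at 6.54 and 7.04 CPM in Y440X cells, against 20.3 and 25.4 CPM in WT cells. Sox8, the closest relative of both Sox9 and Sox10, was at 16.9 and 18.99 CPM in Y440X cells, against 74.9 and 68.6 CPM in WT cells. Sox5 was at 207 and 180.3 CPM in Y440X cells, against 481 and 386 CPM in WT cells. Sox8 and Sox5 are on the chondrocyte list as well. The other lower factors included Foxc2, Gata2, the Wnt pathway factor Lef1 and the Hippo pathway factor Tead4, with log2 fold changes of -1.19 ± 0.26, -1.04 ± 0.24, -1.05 ± 0.25 and -1.09 ± 0.27 (SE).

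Of the 7 higher transcription factors, Meox1 had the highest level. Meox1, a homeobox gene of somites and mesenchyme, was at 22.7 and 21.2 CPM in Y440X cells, against 4.51 and 6.65 CPM in WT cells, a log2 fold change of 1.97 ± 0.25 (SE). Grhl2 and Grhl3, on the epithelium list, had 1.40 ± 0.27 and 1.36 ± 0.30 (SE). Bcl6b, a repressor found in endothelial cells, had 1.24 ± 0.36 and Tbx1 1.59 ± 0.40 (SE). Zfp366 had 8 reads in both Y440X libraries together and 0 in the WT libraries, which is at least 2.39-fold higher against a floor of 3 counts over the WT group and covers counting error only.

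**Figure D4:**
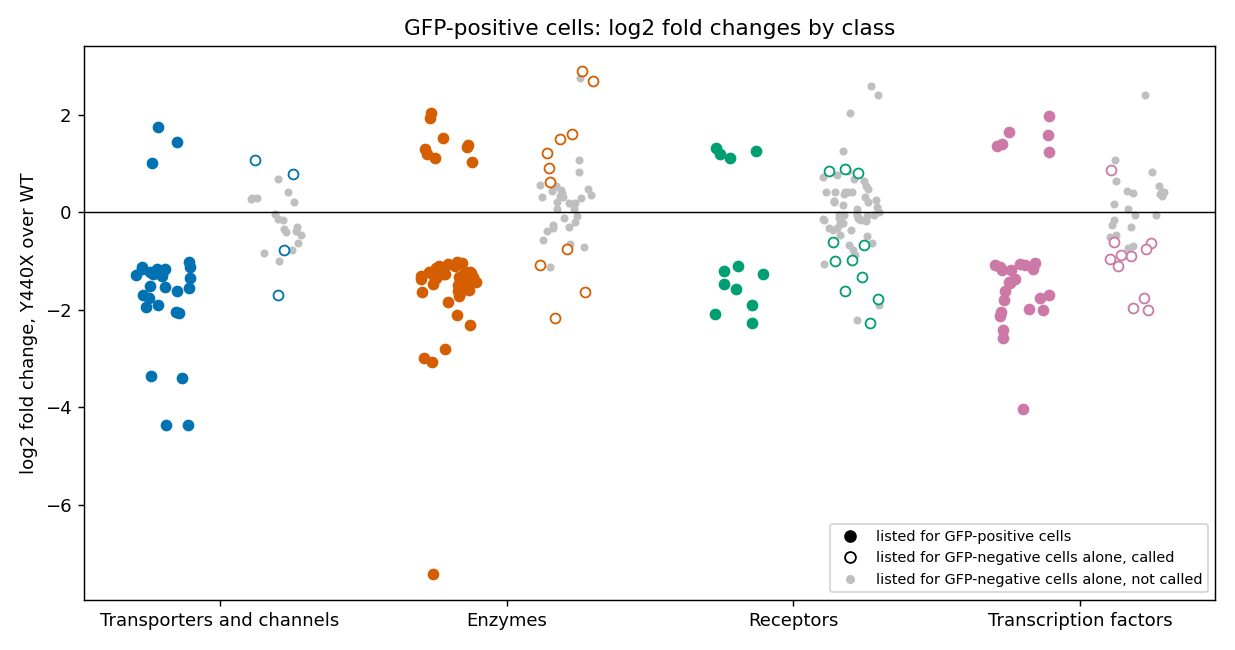
Log2 fold change of Y440X over WT in GFP-positive cells for each gene of the 4 classes, without the 4 genes that had 0 counts in a genotype. Filled points are genes the authors listed for GFP-positive cells, open points genes listed for GFP-negative cells alone that passed edgeR's test here, and small grey points those that did not; the filled points leave a gap between about -1 and 1 because listing required it.

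The 250 bases before a transcription start given by RefSeq are shown for 4 of the lower genes, the 2 with the largest decrease whose sequence lacks a short SOX motif and the 2 with the largest decrease whose sequence holds one. The sequences are from RefSeq on build GRCm38.p6, on the gene's own strand, which is the minus strand for all 4, and capitals mark a match to ACAATG or ACAAAG on either strand (the other strand reads CATTGT or CTTTGT). They are Foxa3 at chr7:19023540-19023789, Fxyd3 at chr7:31076698-31076947, Bcl3 at chr7:19822756-19823005 and Zfp385b at chr2:77519667-77519916. The bases right after that start were found in a GENCODE transcript of Fxyd3 and of Bcl3, but not of Foxa3 or Zfp385b.
Foxa3: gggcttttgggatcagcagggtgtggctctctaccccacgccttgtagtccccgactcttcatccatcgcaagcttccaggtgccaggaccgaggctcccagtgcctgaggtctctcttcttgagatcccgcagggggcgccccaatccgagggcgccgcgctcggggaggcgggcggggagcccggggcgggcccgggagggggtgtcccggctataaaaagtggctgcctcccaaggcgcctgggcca
Fxyd3: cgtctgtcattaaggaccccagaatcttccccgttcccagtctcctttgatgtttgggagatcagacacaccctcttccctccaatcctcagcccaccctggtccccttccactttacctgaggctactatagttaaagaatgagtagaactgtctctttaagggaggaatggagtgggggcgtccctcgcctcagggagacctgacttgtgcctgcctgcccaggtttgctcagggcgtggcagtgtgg
Bcl3: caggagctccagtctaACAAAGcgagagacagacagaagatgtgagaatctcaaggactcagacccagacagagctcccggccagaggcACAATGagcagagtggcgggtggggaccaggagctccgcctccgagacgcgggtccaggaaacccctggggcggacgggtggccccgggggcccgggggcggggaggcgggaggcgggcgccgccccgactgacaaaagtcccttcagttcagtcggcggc
Zfp385b: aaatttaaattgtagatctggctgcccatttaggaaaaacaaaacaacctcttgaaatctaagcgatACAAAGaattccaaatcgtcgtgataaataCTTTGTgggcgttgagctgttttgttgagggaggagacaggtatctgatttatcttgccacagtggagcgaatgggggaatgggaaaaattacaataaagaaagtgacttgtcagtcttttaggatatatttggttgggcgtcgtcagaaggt

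Bcl3 and Zfp385b held 2 matches each. Of the 97 lower genes in the 4 classes, 67 had a promoter entry and 10 of these, 14.9%, held a match in the 250 bases. Of the 23 higher genes, 16 had an entry and 3, or 18.8%, held one. The share over all 27025 genes with an entry was 25.5%. A match describes letters in this window and not a binding site.

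The 510 genes listed for GFP-negative cells were chosen in other libraries than the GFP-positive ones. In edgeR's quasi-likelihood test, adjusted by Benjamini-Hochberg over all 739 genes, 117 of the 510 (22.9%) fell and 67 (13.1%) rose in Y440X GFP-positive cells. Of the 183 in the 4 classes, 36 fell and 20 rose, with 14 and 3 of 38 transcription factors, 9 and 4 of 71 receptors, 8 and 10 of 48 enzymes and 5 and 3 of 26 transporters and channels. The balance of directions depends on the scaling: with TMM scaling (a trimmed mean of fold changes) over the listed genes, most of which are lower by selection, 42 of the 510 fell and 173 rose, and in the 4 classes 13 fell and 64 rose. Without the WT forelimb library 48 of the 510 fell and 18 rose, and without the WT hindlimb library 74 fell and 33 rose. This comparison with all 510 was added after the data were seen. The GFP-positive and GFP-negative libraries came from sorts of pooled buds of the same genotypes, so what differs between pools, such as sex, may be common to both fractions. Of the 510 genes, 74 were also in the list for GFP-positive cells. The 436 that remain are those the authors did not list in GFP-positive cells. Their counts therefore leave out, by construction, the genes that passed both of the authors' bounds there. Any of the 436 with a log2 fold change beyond 1 in size, such as Gpr17, Ednrb, Foxd3 and Akr1c14 below, thus missed the authors' FDR bound of 0.05. The adjusted p given here for such genes rests on a fit to the 739 listed genes alone. Of these 436, 69 (15.8%) fell and 41 (9.4%) rose by the same test. Of the 164 in the 4 classes, 24 fell and 13 rose. The split was 2 lower and 2 higher of 22 transporters and channels, 4 and 7 of 41 enzymes, 8 and 3 of 69 receptors, and 10 and 1 of 32 transcription factors. Their median log2 fold change was -0.055 in the 4 classes together and -0.055 over the 436. Without the WT forelimb library, 10 of the 436 fell and 4 rose, and in the 4 classes 5 fell and 2 rose. Without the WT hindlimb library, 31 fell and 13 rose, with 10 and 2 in the 4 classes, and without the Y440X hindlimb library 36 fell and 31 rose.

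Of the 32 transcription factors among the 436, 10 fell and 1 rose, while with TMM scaling over the listed genes 3 fell and 12 rose. Foxc1, a forkhead factor of skeletal mesenchyme, was at 129 and 131 CPM in Y440X cells, against 241 and 198 CPM in WT cells, with an edgeR adjusted p of 0.0133. Its relative Foxc2 was among the listed lower genes. Sox6, the partner of Sox5, was at 257 and 259 CPM in Y440X cells, against 497 and 461 CPM in WT cells, with an edgeR adjusted p of 0.00559. Foxd3, a neural crest factor, was at 0.132 and 0.268 CPM in Y440X cells, against 0.855 and 0.517 CPM in WT cells, with an edgeR adjusted p of 0.00285. Pax6 was at 0.110 and 0.111 CPM in Y440X cells, against 0.337 and 0.564 CPM in WT cells, with an edgeR adjusted p of 0.00307. Foxd3 and Pax6 stayed under 1 CPM in all 4 libraries. Fli1 and Zfp711 had -0.62 ± 0.23 and -0.61 ± 0.23 (SE), but did not pass with any 1 library left out, and their sign turned when the scaling was taken from the listed genes. Meis1, a homeobox gene of the proximal limb bud, was the 1 factor that rose, to 10.8 and 12.2 CPM in Y440X cells, against 6.04 and 6.41 CPM in WT cells, with an edgeR adjusted p of 0.00388. Foxc1 and Sox6 did not pass without any 1 of the 3 libraries other than the WT hindlimb, with edgeR adjusted p of up to 0.0981 and 0.072. Foxd3 did not pass without the WT forelimb (0.0953), Pax6 without the WT hindlimb (0.0566), and Meis1 without either WT library (up to 0.0716).

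Among the 8 receptors that fell, Gpr17 and Ednrb had the smallest adjusted p. Ednrb, the endothelin receptor of neural crest cells, fell to 2.02 and 1.18 CPM in Y440X cells, against 6.12 and 3.76 CPM in WT cells, with an edgeR adjusted p of 0.000187. Gpr17, a receptor of oligodendrocyte precursors, fell to 0.966 and 1.09 CPM in Y440X cells, against 3.63 and 3.45 CPM in WT cells. Its edgeR adjusted p was 3.17e-05. Ednrb and Gpr17, with log2 fold changes of -1.62 and -1.78, still missed the authors' FDR bound of 0.05 in GFP-positive cells. Without the WT forelimb library the adjusted p of Ednrb was 0.0666, while that of Gpr17 stayed under 0.05 with any 1 of the 4 libraries left out. The plexin gene Plxnb3 and the chemokine receptor gene Cxcr5 had log2 fold changes of -1.32 ± 0.38 and -0.995 ± 0.30 (SE). All 6 Schwann cell and neural crest markers in the tables had a negative log2 fold change in GFP-positive cells, and 4 of them were listed there. The 2 bone morphogenetic protein receptors Bmpr1b and Bmpr2 fell, with -0.66 ± 0.25 and -0.61 ± 0.25 (SE), but their sign turned under the scaling from the listed genes. Bmpr2 did not pass with any 1 library left out, and Bmpr1b passed without the WT hindlimb library alone, with a log2 fold change of -0.43 without the WT forelimb. The receptors that rose were Itga3, Adgrf5 and Cd93, with 0.81 ± 0.28, 0.85 ± 0.29 and 0.90 ± 0.30 (SE), and none of the 3 passed without either WT library. Without the Y440X hindlimb library Itga3 had 0.53. Adgrf5 and Cd93 are known from endothelial cells, and 10 of the 11 endothelium markers had a positive log2 fold change in GFP-positive cells, of which 4 passed the test. Of these 4, Robo4 was itself listed for GFP-positive cells. Among the 10 markers not listed there, 3 passed as higher, beside 41 of the 436 genes (9.4%).

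Among the enzymes 7 of these genes rose and 4 fell. Akr1c14, an aldo-keto reductase, rose to 1.16 and 0.869 CPM in Y440X cells, against 0.441 and 0.282 CPM in WT cells, with an edgeR adjusted p of 0.00240. Apobec1, a cytidine deaminase, rose to 0.966 and 0.624 CPM in Y440X cells, against 0.259 and 0.258 CPM in WT cells, with an edgeR adjusted p of 0.00258. The phospholipase gene Pla2g4f and the collagenase gene Mmp13 had log2 fold changes of 0.92 ± 0.35 and 2.70 ± 1.24 (SE). Without the WT hindlimb library the adjusted p was 0.0843 for Akr1c14 and over 0.05 for the other 3. Pla2g4f had 0.57 without the Y440X hindlimb library, and Mmp13 ranged from 1.72 to 5.99 with 1 library left out in turn. All 7 enzymes that rose were listed as lower in GFP-negative cells, as were 38 of all 41 enzymes listed for GFP-negative cells alone. Gucy1a2, a subunit of soluble guanylate cyclase upstream of the cGMP-dependent kinases, fell to 22.4 and 25.6 CPM in Y440X cells, against 43.5 and 37.3 CPM in WT cells, with an edgeR adjusted p of 0.00903. Without the Y440X or the WT forelimb library its adjusted p was over 0.05, at most 0.0926. The partner subunit gene Gucy1a3 did not pass, with 0.46 ± 0.25 (SE) and an edgeR adjusted p of 0.129. Both kinases and both cyclase subunits were the 4 genes in the tables of a cGMP signalling list of 13 drawn up after the values were seen, of which 2 were listed for GFP-positive cells. Ampd1 and Cyp1a1 fell as well, with -1.64 ± 0.50 and -2.17 ± 0.89 (SE), at under 1 CPM in every library, and Cyp1a1 ranged from -6.46 to -1.22 with 1 library left out in turn. Of the transporters, Slc18a2, a vesicular monoamine transporter, and Fxyd4 fell, with -0.76 ± 0.25 and -1.69 ± 0.49 (SE), while the connexin Gjb6 and the sugar phosphate exchanger Slc37a2 rose, with 1.07 ± 0.34 and 0.79 ± 0.34 (SE). Without the WT hindlimb library none of these 4 passed.

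In GFP-negative cells, 127 of the 303 genes listed for GFP-positive cells (41.9%) fell and 28 (9.24%) rose by the same test. With TMM scaling over the listed genes 19 fell and 145 rose, so the balance of directions depends on the scaling here too. Of the 229 genes listed for GFP-positive cells alone, 72 (31.4%) fell and 9 (3.93%) rose in the GFP-negative libraries, against 1 and 126 with that scaling. In the 4 classes the counts were 26 and 6 of 101. By class, 6 fell and 2 rose of 26 transporters and channels, 6 and 1 of 42 enzymes, 3 and 1 of 10 receptors, and 11 and 2 of 23 transcription factors. Snai1 was at 66.0 CPM in Y440X GFP-negative cells and 110 CPM in WT GFP-negative cells on average, a log2 fold change of -0.74 ± 0.19 (SE). Slc7a11 and Fzd9 fell with -0.81 ± 0.18 and -0.72 ± 0.28 (SE). The sign of these 3 turned with the scaling from the listed genes, where none of them passed. Tead4 rose in GFP-negative cells, with 0.84 ± 0.27 (SE), as did Fxyd3, with 1.68 ± 0.58 (SE) at a mean of 0.356 CPM in Y440X and 0.108 CPM in WT. Tgm2, Mfi2, Vdr and Dlx3 did not pass the test there, with -0.34 ± 0.38, -0.35 ± 0.34, -0.05 ± 0.33 and -0.41 ± 0.32 (SE).

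The difference between the fractions was tested itself, as a fraction by genotype interaction over all 8 libraries. It passed the threshold for 369 of the 739 genes (49.9%), and for 71 of the 120 listed genes in the 4 classes. The contrast that chose the listed genes enters this test, so its count is a description. The effect of genotype was more negative in GFP-positive cells by -3.00 for Mfi2, by -3.98 for Klk10 and by -5.07 for Fxyd3, on the log2 scale. Mcoln2 had a log2 fold change of -2.07 among GFP-positive and -2.14 among GFP-negative cells.

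Alpl, Adgrl4 and Bcl6b were listed as higher in GFP-positive cells and as lower in GFP-negative cells, with 4 further genes outside the 4 classes. Alpl averaged 23.6 CPM in Y440X GFP-positive cells against 9.57 CPM in WT, and 4.87 CPM in Y440X GFP-negative cells against 11.7 CPM in WT. Bcl6b had log2 fold changes of 1.24 ± 0.36 among GFP-positive and -1.01 ± 0.23 among GFP-negative cells (SE). The other 4 were Mfng, Rasgrp3, Gimap6 and Fcrls, with 2.09, 1.08, 1.00 and 1.26 in GFP-positive cells and -1.02, -1.62, -1.18 and -1.91 in GFP-negative cells. With 1 GFP-positive library left out in turn, Alpl ranged from 0.98 to 1.72, Adgrl4 from 1.09 to 1.28 and Bcl6b from 0.90 to 1.71. The other 4 stayed at 0.73 or more. With DESeq2, another test on the same counts, Adgrl4 and Fcrls did not pass (adjusted p of 0.215 and 0.115). The 7 genes were listed on this same contrast, so a pass of the others adds no support. Mfng encodes a glycosyltransferase of Notch receptors, but neither the symbol patterns nor the corrections placed it among the enzymes. The 11 endothelium markers were lower in GFP-negative cells in every case, and summed there to 115 and 116 CPM in Y440X, against 282 and 265 CPM in WT. Of the 11, 10 are present only because the authors called them in GFP-negative cells, so their difference there is a description. The part of endothelial cells in these 7 genes was not tested.

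**Figure D5:**
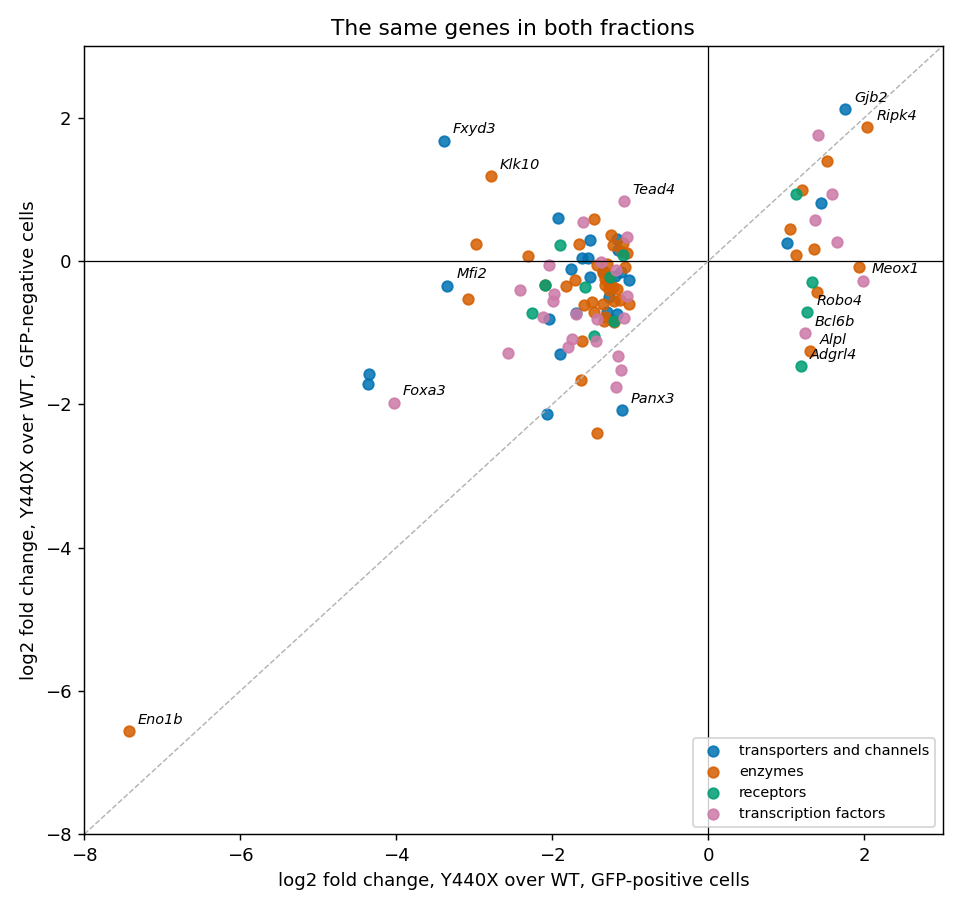
Log2 fold change of Y440X over WT in GFP-positive cells (horizontal) and GFP-negative cells (vertical) for the genes of the 4 classes listed for GFP-positive cells, without Zfp366, coloured by class; the dashed line marks equal values. Eno1b lies far down in both fractions, and Alpl, Adgrl4, Bcl6b and Robo4 lie to the right of 0 and below it.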

How the data were processed

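Poly(A) RNA of sorted limb bud cells was sequenced in 8 libraries, 2 for each of 4 groups. Per the submitters' processing notes, the tools included featureCounts and edgeR 3.36.0, and GRCm38 and mm10 are the builds named; which aligner was used is not given in those notes. The 4 deposited tables hold genes whose FDR was under 0.05 and whose log2 fold change was at least 1 in size, and the authors gave for each, per the file headers, log2 values (fold change and mean CPM), a score (the F statistic), p-values with their FDR, and a gene length. The per-library columns are headed RPKM, but the deposited values are whole-number counts. Because only listed genes were in hand, effective library sizes were solved from the deposited log2 fold changes and mean CPM of 165 genes with at least 200 counts in every library, which returned the fold changes to within 0.0013. There were 0 sample columns left unused.

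CPM are counts over these sizes. edgeR 4.0.16 (R 4.3.3) fitted its quasi-likelihood test with no further scaling to all 739 genes, each fraction alone and both with an interaction, adjusted by Benjamini-Hochberg over the 739 and called under 0.05. The scripts were checked on simulated counts. Genes chosen by the authors on the GFP-positive contrast were described, and a pass of theirs in a refit is no support. Classes came from gene symbol patterns, with 62 corrections by hand made after symbols and values were seen. Per class by symbol pattern, before those corrections, the named genes are the 8 listed genes with the largest absolute log2 fold change and a mean of at least 1 CPM in the higher genotype, without chondrocyte, epithelium and heat shock markers, and up to 6 of the tested genes with the smallest adjusted p; others were chosen after their values were seen. Some genes are not reported here. The members and lists were chosen with earlier results of these data known. RefSeq coordinates (GRCm38.p6) matched 736 of the 739 genes. Alternatives were TMM scaling, DESeq2 1.42.0, limma 3.58.1 on log2(CPM + 1), a filter at 1 CPM, limb as a block, and each library left out.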

Additional observations from a re-analysis of the deposited data

Results flagged for a closer look

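For 36 genes, among those named by the rule for each class and those listed as higher in GFP-positive and lower in GFP-negative cells, the genotype effect differed between GFP-positive and GFP-negative cells, by the interaction in edgeR's quasi-likelihood test at an adjusted p under 0.05. The values are the log2 fold change in GFP-positive cells minus that in GFP-negative cells. The genes had been listed on 1 or both of these contrasts, so the counts are a description. The same interaction passed for 369 of all 739 genes (49.9%). Those listed in opposite directions were picked for that very difference.

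Among transporters the difference was -5.07 for Fxyd3, -3.00 for Mfi2, -1.65 for Slc17a9, -1.23 for Slc7a11 and 1.95 for Slc37a2. Among enzymes it was -3.98 for Klk10, -2.54 for Acsm3, -2.39 for B3galt5, -1.89 for Pygl, -1.75 for Tgm2 and -1.44 for Phospho1, all lower in GFP-positive cells. The enzymes with a positive difference were Mmp13 with 4.88, Akr1c14 with 2.94, Alpl with 2.57 and Pla2g4f with 2.26. Each of these 4 was lower in Y440X than in WT GFP-negative cells.

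Among receptors the difference was -2.13 for Erbb3, -1.76 for Chrm1, -1.54 for Fzd9 and -1.03 for Itga10, and 2.66 for Adgrl4, 1.98 for Robo4, 1.92 for Adgrf5 and 1.61 for Il1rl2. Among transcription factors it was -2.01 for Dlx3, -1.98 for Vdr, -1.53 for Zfp385c, -1.35 for Zfp385b and -0.97 for Snai1. It was 2.25 for both Bcl6b and Meox1 and 1.92 for Foxc1. Sox9 had a difference of 1.14, since its log2 fold change was -0.95 among GFP-positive and -2.09 among GFP-negative cells. Outside the 4 classes Fcrls had 3.17, Mfng 3.11, Rasgrp3 2.70 and Gimap6 2.18.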

How the results depend on the processing

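Depth was 38580000 to 45545000 reads in the GFP-positive libraries, so genes under 1 CPM rest on few reads, and only listed genes could be fitted. TMM scaling over the listed genes, most of which are lower by selection, moved the median log2 fold change by 0.663 (GFP-positive) and 1.072 (GFP-negative). With it the GFP-negative-only genes gave 147 higher and 11 lower in GFP-positive cells, the GFP-positive-only genes 126 higher and 1 lower in GFP-negative cells, and the interaction 140 positive and 204 negative, against 41, 69, 9, 72 and 235 for the first 5 of these without it. All 97 lower and 23 higher listed genes of the 4 classes kept their sign under it. This follows from the listing, whose bound of 1 is larger than the median shift of 0.663, and shows no robustness. Of the listed genes followed singly, 79 passed edgeR's test with this scaling and 18 did not, Sox5 and Cpe among the latter. Bmpr1b (0.0079), Bmpr2 (0.0605), Fli1 (0.0467) and Zfp711 (0.0507), not listed for GFP-positive cells, turned positive. DESeq2 gave 17 higher and 43 lower of the GFP-negative-only genes, and the filter at 1 CPM 24 higher with fewer genes tested. Limb as a replicate block gave 55 higher and 89 lower in GFP-positive cells, 16 higher and 84 lower in GFP-negative cells, and 289 and 168 interactions; the limbs of the genotypes share only a limb name, and the correlation of their forelimb to hindlimb differences was 0.513 (GFP-positive) and 0.474 (GFP-negative). With 1 library left out, the GFP-negative-only genes ranged from 4 to 35 higher and 10 to 53 lower, the GFP-positive-only genes from 9 to 12 higher and 40 to 66 lower, and the interactions from 185 to 241 positive and 88 to 128 negative. The smallest counts, 4 and 10, came without the WT forelimb library, and the cause was not tested. At an FDR under 0.01 in the authors' deposited table, 12 lower and 1 higher transporters, 17 and 0 enzymes, 4 and 0 receptors, and 9 and 1 transcription factors were left, or 42 and 2 in all. All genes listed for the other fraction, also an added alternative, gave 67 higher and 117 lower in GFP-positive cells and 28 higher and 127 lower in GFP-negative cells, since they include the genes listed for both. By symbol pattern alone, an alternative added after the data were seen, the enzymes were 25 lower and 7 higher.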

Other observations

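The following genes outside the 4 classes were picked after their values were seen. Ihh, the hedgehog ligand of the growth plate, was at 20.7 and 35.9 CPM in Y440X GFP-positive cells, against 121 and 99.3 CPM in WT cells. Nog, the antagonist of bone morphogenetic proteins, was at 45.3 and 62.3 CPM in Y440X cells, against 197 and 185 CPM in WT cells. Tgfa, a ligand of the epidermal growth factor receptor, was at 15.9 and 15.6 CPM in Y440X cells, against 39.2 and 37.7 CPM in WT cells. All 3 were in the authors' list of lower genes, and the genotypes did not overlap. Cxcl12, a chemokine of mesenchyme, was higher, at 137 and 122 CPM in Y440X cells, against 51.3 and 62.00 CPM in WT cells, with a log2 fold change of -0.12 in GFP-negative cells.

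The actin-severing protein gene Scin was at 31.2 and 15.8 CPM in Y440X cells, against 147 and 88.5 CPM in WT cells, and Frmd7 at 13.8 and 11.7 CPM in Y440X cells, against 80.2 and 67.8 CPM in WT cells. Edil3, an integrin-binding matrix protein, was at 35.6 and 35.5 CPM in Y440X cells, against 140.4 and 106 CPM in WT cells. Scin had a log2 fold change of 0.40 ± 0.26 (SE) in GFP-negative cells and Frmd7 -1.49 ± 0.22 (SE).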
